A study of Mus musculus with 6 samples.

Results

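The genes Cck, Ptprv, Rag1, Chga and Lst1 are best known from cells other than fibroblasts, and their mRNA was followed here in a mouse fibroblast line whose oncogenes can be switched on. The platform annotation maps 9 of the 12422 non-control probe sets on the array to these 5 genes, with 3 for Ptprv, 2 each for Rag1 and Chga and 1 each for Cck and Lst1. The genes were chosen by their signals on the 4 withdrawal and doxycycline arrays: among genes of other lineages, they changed in one direction in each replicate number. Those values are given as a description without a test. Of the 7453 probe sets bright enough to be tested, 6 belong to these genes. The other 3 were too dim. The filter used the mean over all 6 arrays, so a probe set could pass through the arrays where it was high. All of the tested probe sets but that of Lst1 had a group mean below the filter level, a signal of about 29.0.

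The cells are NIH3T3 fibroblasts, an immortalised mouse line, carrying c-myc and Ha-ras under a Tet-off promoter, which doxycycline keeps silent. In all 3 groups they also make IRF-1hER, in which the interferon response factor IRF-1 is fused to a human estrogen receptor part so that estradiol activates it. The estradiol group had no doxycycline and received estradiol for 48 h (a concentration of 1 mM in the labels). The withdrawal group had neither agent, and the doxycycline group received 2 µg/ml doxycycline. Each group had 2 arrays, and all replicates 1 were extracted with RNeasy while all replicates 2 were extracted with TRIZOL. The title of doxycycline replicate 2 also names E2, although its treatment entry lists only doxycycline. The labels do not say whether replicates came from separate cultures, so p-values reflect array-to-array spread, which may be technical. Oncogene expression cannot be told apart from other effects of doxycycline, nor IRF-1 activation from other effects of estradiol.

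Cholecystokinin, encoded by Cck, is a peptide hormone of gut endocrine cells and a neuropeptide of the brain, where it acts through the receptors encoded by Cckar and Cckbr. Chga encodes chromogranin A, an acidic protein of the dense-core granules in which such peptides are stored. Ptprv encodes a receptor-type protein tyrosine phosphatase first described in bone and testis (OST-PTP), and its gene is also known as a p53-induced gene in mouse cells. The RefSeq annotation of the reference mouse strain now lists it as a transcribed pseudogene. Rag1 encodes, with Rag2, the recombinase that cuts antigen receptor genes in developing lymphocytes. Lst1 is a gene of the MHC class III region that is expressed mainly in leukocytes.

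The promoters of Cck and Chga are shown because both genes belong to peptide-secreting cells and differed in opposite directions between withdrawal and doxycycline. Both sequences are from RefSeq on build GRCm38.p6, which the deposited files do not name, and each covers the 250 bases before the annotated start, 5′ to 3′ along the gene. The Cck window is chr9:121495695-121495944 on the minus strand, with capitals on an E-box CACGTG and on TGCGTCA, a variant of the cyclic AMP response element. The Chga window is chr12:102554691-102554940 on the plus strand, with capitals on both GGGCGG boxes and on TGACG, the core of the cyclic AMP response element.
Cck: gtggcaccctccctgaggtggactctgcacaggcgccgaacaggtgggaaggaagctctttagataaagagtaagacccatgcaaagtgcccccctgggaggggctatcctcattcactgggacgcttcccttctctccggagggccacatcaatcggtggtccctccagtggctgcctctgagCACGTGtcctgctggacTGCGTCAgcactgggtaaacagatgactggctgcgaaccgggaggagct
Chga: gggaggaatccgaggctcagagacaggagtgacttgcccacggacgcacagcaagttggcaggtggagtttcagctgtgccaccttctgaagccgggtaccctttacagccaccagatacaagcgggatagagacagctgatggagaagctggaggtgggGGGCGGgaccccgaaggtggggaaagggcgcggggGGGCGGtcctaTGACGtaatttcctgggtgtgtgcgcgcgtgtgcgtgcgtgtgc

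The E-box starts 66 bases before the annotated start of Cck and is the motif that Myc-Max dimers read. Among 27025 RefSeq promoters in the same window and on both strands, 6.05% hold CACGTG. The variant TGCGTCA starts 49 bases before the start of Cck, overlaps a TGACG match on the other strand and is held by 1.78% of promoters. In Chga, TGACG starts 44 bases before the start and the GGGCGG boxes start at 90 and 55. TGACG is held by 17.9% of promoters and GGGCGG by 32.9%. Of the other motifs searched, TGACGTCA is held by 1.62% of promoters, the AP-1 motif TGANTCA by 6.87%, TATAAA by 13.0% and the interferon factor core AANNGAAA by 21.6%. Neither window holds any of these 4. A match describes letters in these windows and is not evidence of binding. The promoter of Rag1, the other gene with an entry among the RefSeq promoters, held none of the 8 motifs.

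All values are MAS5 signals, the brightness of a probe set on a linear scale. The file gives no detection calls, so it is not known whether a signal such as 6.1 lay above background. Between 40.6% and 42.1% of the probe sets on an array had a signal below 32. Similarity between arrays did not follow the group names throughout. Estradiol replicate 1 and withdrawal replicate 1 differed at least 2-fold in 16 tested probe sets (0.215%), and withdrawal replicates 1 and 2 in 920 (12.3%). Withdrawal replicate 2 differed from doxycycline replicate 1 in 324 (4.35%), and the doxycycline arrays from each other in 283 (3.80%). The group labels were taken as given, and whether an array carries the wrong label was not tested. A wrong label would change what the withdrawal values mean, so values of withdrawal against doxycycline are also given with arrays left out. In a limma fit over all 7453 probe sets, none passed an adjusted p of 0.05 between withdrawal and doxycycline (0.00% called), with 326 at an unadjusted p under 0.05 (4.37%).

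**Figure D1:**
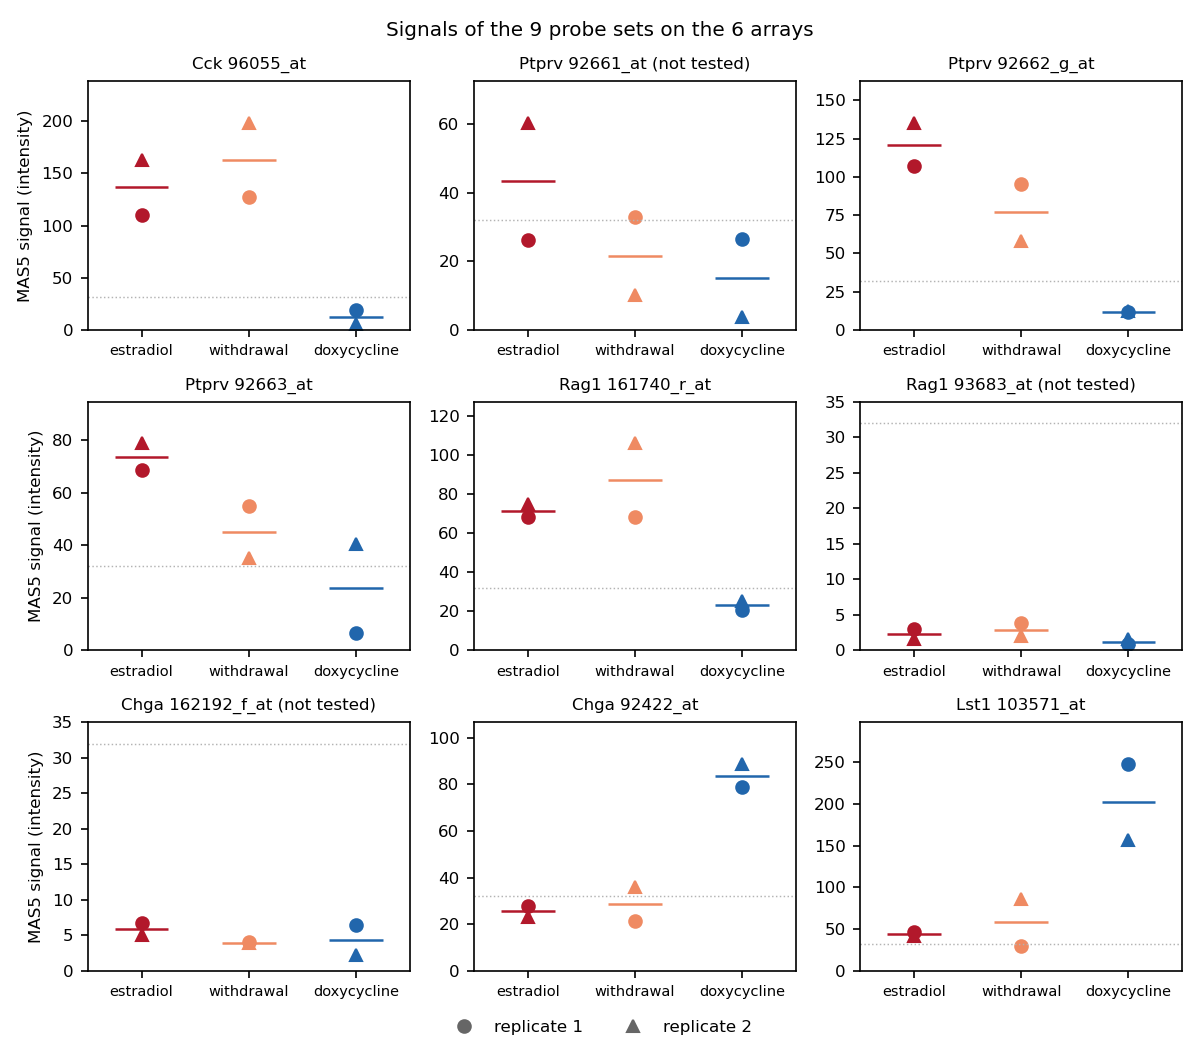
MAS5 signal (linear scale from 0) of each of the 9 probe sets on the estradiol, withdrawal and doxycycline arrays. Circles are replicate 1, triangles replicate 2, horizontal bars the group means and the dotted line a signal of 32. Cck and the Ptprv probe set 92662_g_at were below 20 on both doxycycline arrays and above 58 on the other 4, while the second probe sets of Rag1 and Chga stayed below 7 on every array.

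Cck was high in cells without doxycycline and low in cells with it. Its probe set 96055_at had signals of 110.0 and 163.3 on the estradiol arrays, 127.0 and 198.4 on the withdrawal arrays, and 19.1 and 6.1 on the doxycycline arrays. All 4 arrays without doxycycline were high, both doxycycline arrays were low, and the estradiol and withdrawal arrays overlapped. The mean signal was 163 ± 50.5 after withdrawal and 12.6 ± 9.19 with doxycycline (SD, n = 2 each). No ratio is given, since the doxycycline signals may lie in the background. On the log2(signal + 32) scale, which damps changes of dim probe sets, the difference between withdrawal and doxycycline was 2.12 (SE 0.31), with 1.64 in replicate 1 and 2.60 in replicate 2. It ranked first of 7453 in that direction, in the comparison that chose the gene. In bulk RNA, a higher level in every cell cannot be told apart from a high level in a few cells. Leaving out any 1 array gave 1.85 to 2.38, the lowest without withdrawal replicate 2.

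The 3 Ptprv probe sets gave different patterns. For the brightest, 92662_g_at, signals were 107.3 and 135.2 on the estradiol arrays, 95.1 and 58.3 on the withdrawal arrays, and 11.4 and 12.3 on the doxycycline arrays. The doxycycline values lay close together, and the 3 groups did not overlap. Withdrawal against doxycycline gave a log2 difference of 1.29 (SE 0.27), with 1.55 in replicate 1 and 1.03 in replicate 2, and 1.04 to 1.54 with any 1 array left out. Probe set 92661_at, which is annotated to the same mRNA record, had 26.3 and 60.3 with estradiol, 33.0 and 10.3 after withdrawal, and 26.4 and 3.7 with doxycycline. These groups overlapped, and the probe set was too dim to be tested. The third, 92663_at, is annotated to a different sequence record and had 68.5 and 78.7 with estradiol, 54.9 and 35.3 after withdrawal, and 6.7 and 40.6 with doxycycline. Its withdrawal and doxycycline arrays overlapped, with log2 differences of 1.17 in replicate 1 and -0.11 in replicate 2. Without doxycycline replicate 1 the difference of 92663_at was 0.07, and without doxycycline replicate 2 it was 0.98. The rule's direction was thus met in both replicate numbers by 92661_at (0.15 and 0.24) and 92662_g_at, and missed by 92663_at.

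Rag1 was high without doxycycline in 1 of its probe sets and near the bottom of the scale in the other. Probe set 161740_r_at had 68.0 and 74.7 with estradiol, 68.5 and 105.9 after withdrawal, and 20.8 and 25.1 with doxycycline. The 4 arrays without doxycycline lay above both doxycycline arrays, and withdrawal against doxycycline gave a log2 difference of 1.10 (SE 0.26), with 0.93 and 1.27 by replicate number and 0.87 to 1.33 with any 1 array left out. Probe set 93683_at had 3.0 and 1.6 with estradiol, 3.8 and 2.0 after withdrawal, and 0.9 and 1.6 with doxycycline. It was below 4 on every array, and on that level a difference cannot be read. In Affymetrix names, the suffix r marks a probe set for which some probe selection rules were relaxed, and 161740_r_at has no sequence record in the annotation. Whether its signal came from Rag1 mRNA was not tested.

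Chga was lower without doxycycline in its brighter probe set. Probe set 92422_at had 27.9 and 23.2 with estradiol, 21.3 and 36.0 after withdrawal, and 78.8 and 88.8 with doxycycline. Both doxycycline arrays were high and the other 4 were low, with estradiol and withdrawal overlapping. The log2 difference between withdrawal and doxycycline was -0.94 (SE 0.25), with -1.06 in replicate 1, -0.83 in replicate 2 and -1.12 to -0.77 with any 1 array left out. Probe set 162192_f_at had 6.7 and 5.0 with estradiol, 4.1 and 3.9 after withdrawal, and 6.4 and 2.3 with doxycycline. The suffix f marks probes shared by similar sequences. It was below 7 on every array and was not tested.

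Lst1, read by 103571_at, was also lower without doxycycline, but its size differed between replicate numbers. Signals were 46.2 and 42.0 with estradiol, 30.2 and 86.5 after withdrawal, and 248.1 and 156.6 with doxycycline. The doxycycline arrays were highest, withdrawal replicate 2 was intermediate, and no group overlapped with doxycycline. The log2 difference between withdrawal and doxycycline was -1.42 (SE 0.36), with -2.17 in replicate 1 and -0.67 in replicate 2. Leaving out withdrawal replicate 1 gave -0.96, and leaving out withdrawal replicate 2 gave -1.89.

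The direction rule by itself was broad. Of all tested probe sets, 47.9% had one direction in both replicate numbers between withdrawal and doxycycline, and 0.470% (35) also had an unadjusted p under 0.01. Cck, 92662_g_at, 161740_r_at, 92422_at and Lst1 were among those 35. The same 4 arrays chose the genes, so nothing is read from that count. Withdrawal and doxycycline arrays did not overlap, with withdrawal higher, in 16.8% of tested probe sets and, with withdrawal lower, in 15.0%. Just outside the rule lay 92663_at, with opposite signs in the replicate numbers.

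Withdrawal replicate 2 resembled doxycycline replicate 1 over the array as a whole, so the genes were also set side by side on that pair. Cck was higher on withdrawal replicate 2 by 2.17 log2 units, 161740_r_at of Rag1 by 1.39 and 92662_g_at of Ptprv by 1.06. Lst1 was lower, at -1.24, while 92422_at of Chga stood at -0.70 and 92663_at of Ptprv at 0.80. Of the 6 tested probe sets, 4 thus differed at least 2-fold on a pair where 4.35% of all tested probe sets did. These arrays were used in choosing the genes, so nothing is read from that count. 

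**Figure D2:**
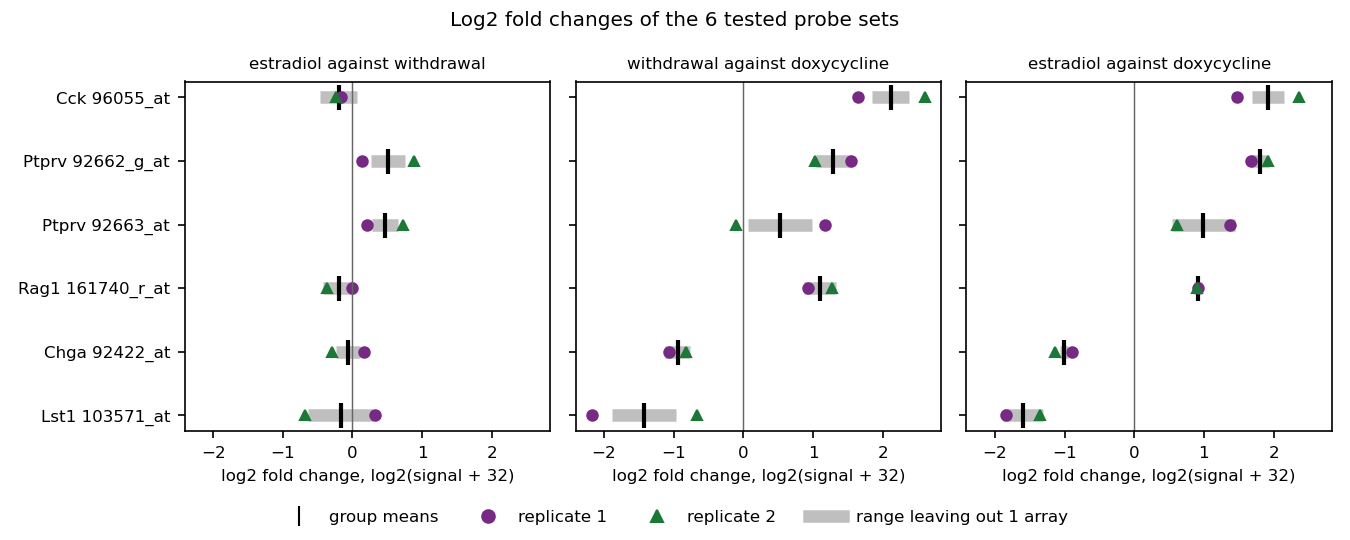
Log2 fold change on the log2(signal + 32) scale for the 6 tested probe sets in the 3 comparisons. Black ticks are differences of group means, circles and triangles the differences within replicate 1 and replicate 2, and grey bars the range when each array in turn is left out. Between estradiol and withdrawal both replicate values are below 0 for Cck and Rag1 and lie on either side of 0 for Chga and Lst1, while 92663_at of Ptprv changes sign between replicate numbers for withdrawal against doxycycline.

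The estradiol arrays played no part in choosing the genes, so they show where the levels stood in cells given estradiol. None of the 6 probe sets passed the test between estradiol and withdrawal, where 0 of 7453 probe sets were called (0.00%) and 52 had an unadjusted p under 0.05 (0.698%). The log2 difference was -0.20 (SE 0.31) for Cck, -0.19 (SE 0.26) for 161740_r_at of Rag1, -0.07 (SE 0.25) for 92422_at of Chga and -0.17 (SE 0.36) for Lst1. In replicate 1, whose estradiol and withdrawal arrays were nearly identical, these probe sets differed by no more than the 0.33 of Lst1. In replicate 2 the values were -0.24 for Cck, -0.37 for Rag1, -0.30 for Chga and -0.68 for Lst1. With withdrawal replicate 2 left out, the sign turned for all 4 of these, at 0.07, 0.04, 0.11 and 0.29. The limma adjusted p was 1.00 for each of the 6. A p that misses the threshold does not show that estradiol left these genes unchanged.

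All 3 Ptprv probe sets had their highest group mean with estradiol. For 92662_g_at both estradiol arrays lay above both withdrawal arrays, with a log2 difference of 0.51 (SE 0.27), 0.13 in replicate 1 and 0.89 in replicate 2. For 92663_at they also did not overlap, with 0.46 (SE 0.34). The third probe set gave -0.16 and 1.13 by replicate number. Estradiol lay above withdrawal without overlap in 11.5% of tested probe sets.

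Estradiol against doxycycline shares the doxycycline arrays with the comparison that chose the genes, so its values are not independent of the choice. Cck differed by 1.92 (SE 0.31), with 1.47 in replicate 1 and 2.36 in replicate 2. For 92662_g_at of Ptprv the difference was 1.80 (SE 0.27), with 1.68 and 1.92, and for 92663_at it was 0.99 (SE 0.34), with 1.38 and 0.61. Rag1 stood at 0.91 (SE 0.26) in 161740_r_at, with 0.92 and 0.90. Chga stood at -1.01 (SE 0.25) in 92422_at, with -0.89 and -1.13, and Lst1 at -1.60 (SE 0.36), with -1.84 and -1.35. The groups did not overlap for any of the 6, against 27.0% of all tested probe sets with estradiol higher and 24.7% with estradiol lower. Each of the 6 also kept one direction in both replicate numbers, as did 64.2% of all tested probe sets. None passed: the limma adjusted p was 0.286 for 92663_at, 0.257 for Rag1 and 0.255 for the other 4, and 0 of 7453 probe sets were called (0.00%), with 1041 at an unadjusted p under 0.05 (14.0%). Without withdrawal replicate 1, which is in neither group but in the shared estimate of the spread, the limma adjusted p was 0.0287 for Cck and 92662_g_at and 0.0390 for Lst1. With withdrawal replicate 2 left out it was 0.0281 for Cck and 92662_g_at and 0.0393 for Lst1. Over all tested probe sets 131 (1.76%) and 133 (1.78%) were called in these fits, and the doxycycline arrays had also served to choose the genes.

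The doxycycline arrays can also be set against the other 4 arrays together. In 13.4% of tested probe sets all 4 lay above both doxycycline arrays, and in 11.3% all 4 lay below. Cck had the widest gap of all tested probe sets in the upward direction, 1.47 log2 units between the highest doxycycline and the lowest other array, and 92662_g_at of Ptprv came next with 1.03. Pabpc4, a poly(A)-binding protein, followed at 1.02. For 161740_r_at of Rag1 the gap was 0.81, rank 9, whereas 92663_at of Ptprv had no gap (-0.11). In the downward direction the gap was 0.70 for 92422_at of Chga, rank 16, and 0.67 for Lst1, rank 21. The widest downward gap was that of the basement membrane gene Nid2, at 1.15. The withdrawal and doxycycline arrays in this pattern were used to choose the genes, so the ranks are a description. Cck, 92662_g_at, 161740_r_at and 92422_at also passed the brightness filter through the arrays where they were high, and their low signals may lie in the background.

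**Figure D3:**
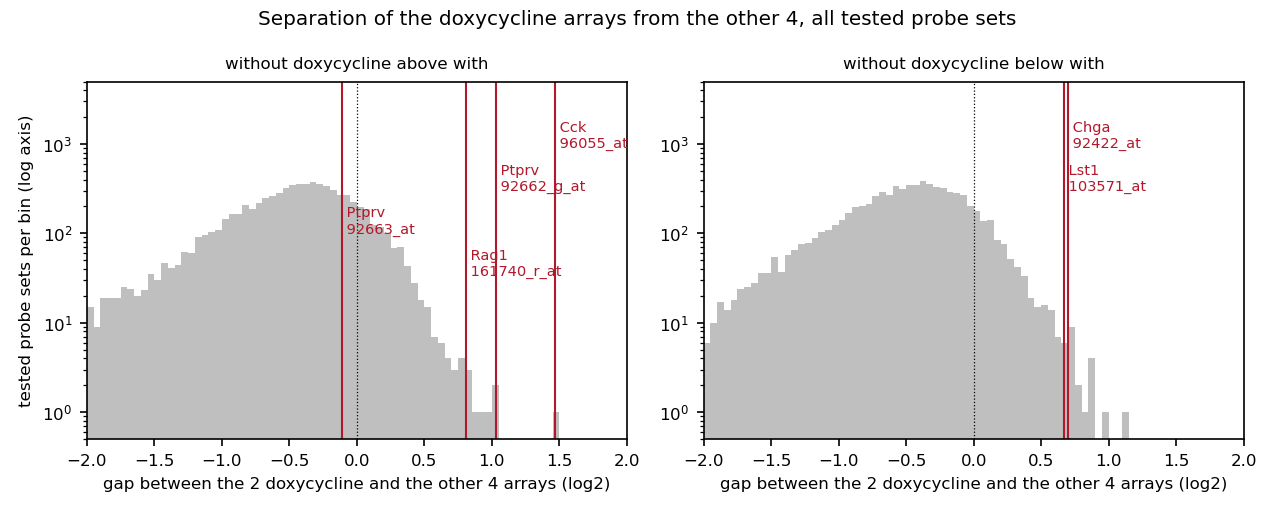
Number of tested probe sets (log axis, bins of 0.05) by the gap in log2 units between the 2 doxycycline arrays and the 4 arrays without doxycycline, for probe sets higher without doxycycline (left) and lower without it (right), shown from -2 to 2. Gaps below 0 mean overlap, and red lines mark the 6 tested probe sets. Cck at 1.47 lies at the far end, and 92663_at of Ptprv at -0.11 lies in the bulk.

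The genes closest in pattern were sought among 2156 tested probe sets with 1 gene symbol and a range of at least 1 log2 unit, by Pearson correlation of log2 values over the 6 arrays, which share groups and batches. For Cck they were Ywhae (0.977), Rag1 (0.970) and the RNA helicase gene Ddx41 (0.969). Ywhae, a 14-3-3 adaptor, had signals of 184.0 and 223.8 with estradiol, 174.4 and 235.9 after withdrawal, and 109.3 and 63.6 with doxycycline. For 92662_g_at of Ptprv they were the spindle gene Aspm (0.997), the proteasome gene Psma6 (0.989) and Bzw2 (0.988). Aspm had 73.3 and 94.7 with estradiol, 76.1 and 43.1 after withdrawal, and 9.5 and 8.7 with doxycycline. For 161740_r_at of Rag1 they were Cck, Specc1 (0.966) and Fancc (0.958), the last a gene of the Fanconi anaemia pathway.

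For Chga the closest were the thrombospondin Thbs3 (0.978), the phospholipase Pld2 (0.976) and the keratin Krt36 (0.965). Thbs3 had 81.9 and 104.3 with estradiol, 72.2 and 119.2 after withdrawal, and 243.5 and 269.6 with doxycycline. For Lst1 they were Igsf10 (0.968), the lysosomal enzyme gene Ctsa (0.963) and the matrix-associated gene Aebp1 (0.956). Igsf10 had 169.8 and 94.8 with estradiol, 161.7 and 371.7 after withdrawal, and 1377.6 and 626.4 with doxycycline, so withdrawal replicate 2 was intermediate there too. These correlations over 6 arrays describe a likeness and carry no test.

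The label of the cells was checked against markers. Of 15 measured fibroblast markers, 11 had a signal above 100 on all arrays, among them the collagen genes Col1a1 and Col1a2, and S100a4. Vim was dim, with a highest signal of 40.7. The summed signal of the 15 was 18246.5 to 23781.9 with estradiol, 23874.0 to 32970.9 after withdrawal and 32047.2 to 36868.9 with doxycycline. Of the 13 tested, 4 had higher and 9 had lower values after withdrawal than with doxycycline. None was called, as over the whole array (0.00% called). Their median log2 difference was -0.29, against 0.01 over all tested probe sets, and that of the platelet-derived growth factor receptor Pdgfra was -0.98 (SE 0.55).

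Many other genes of peptide-secreting cells were dim. Of 32 measured besides those, 17 were below 32 on every array and 8 were bright enough to be tested. Between withdrawal and doxycycline 0 of the 8 were called, as over the whole array (0.00% called). The 8 had 3 higher and 5 lower values and a median log2 difference of -0.09 against 0.01 over all tested. Among dim genes, the granule proteins Scg2 and Scg3 reached 13.7 and 11.7, the synaptic gene Snap25 reached 2.6, and Chgb, a second chromogranin, reached 36.1. Cpe, a carboxypeptidase of peptide hormone maturation, was bright, with 1307.6 and 1201.3 with estradiol, 1266.2 and 2725.9 after withdrawal, and 1684.2 and 1396.3 with doxycycline, and these groups overlapped. Sct, another bright gene, had 228.2 and 305.9 with estradiol, 283.4 and 291.0 after withdrawal, and 287.1 and 316.4 with doxycycline. Eno2 had 71.4 and 112.1 with estradiol, 81.5 and 143.3 after withdrawal, and 157.3 and 132.1 with doxycycline. The receptor gene Cckar was below 32 on every array. Cckbr had 154.4 and 135.5 with estradiol, 155.0 and 117.3 after withdrawal, and 148.2 and 186.8 with doxycycline, a log2 difference of -0.25 (SE 0.26) for withdrawal against doxycycline. The summed signal of the 32 genes was 2278.7 to 2299.9 with estradiol, 2387.2 to 3837.0 after withdrawal and 2576.6 to 2785.0 with doxycycline. The highest sum was on withdrawal replicate 2, where Cpe alone gave 2725.9 of the 3837.0, so it does not describe the list as a whole. Cck was also highest on that array, and a link was not tested.

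Lymphocyte markers other than Rag1 ranged from dim to moderate. Of 24 measured, 13 were below 32 on every array, including Rag2, the partner of Rag1, with a highest signal of 12.2, and the T-cell receptor gene Cd3e with 15.7. Of the 6 tested, 0 were called between withdrawal and doxycycline (0.00% over the array), with 3 higher and 3 lower values and a median of -0.00. The rest reached 32 or more on at least 1 array, among them the T-cell co-receptor gene Cd4 with a highest signal of 107.5 and the B-cell factor gene Pax5 with 72.9. Ebf1, a B-cell factor that other tissues express too, was the brightest, with 82.3 and 77.8 with estradiol, 66.6 and 334.8 after withdrawal, and 190.3 and 144.3 with doxycycline. The sums were 505.9 to 578.8 with estradiol, 554.4 to 780.4 after withdrawal and 641.2 to 671.0 with doxycycline. Among genes of V(D)J recombination and end joining, 5 were tested besides Rag1. Of these, 0 were called (0.00% over the array), with 3 higher and 2 lower values and a median of 0.07. The DNA end-binding gene Xrcc6 stood at 0.40 (SE 0.25) and the chromatin gene Hmgb2 at 0.52 (SE 0.32).

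Many myeloid markers were dim too. Of 18 measured besides Lst1, 9 were below 32 on every array, among them the pan-leukocyte gene Ptprc with a highest signal of 7.4 and the macrophage gene Adgre1 with 13.8. The sums were 788.3 to 792.4 with estradiol, 777.3 to 784.8 after withdrawal and 753.1 to 819.3 with doxycycline, which overlapped. Cd14, a lipopolysaccharide co-receptor, was the brightest, with 334.9 and 295.3 with estradiol, 328.6 and 293.9 after withdrawal, and 257.4 and 379.1 with doxycycline. Csf1r had 108.7 and 125.7 with estradiol, 81.8 and 155.4 after withdrawal, and 119.6 and 103.1 with doxycycline. Cd68 had 90.5 and 72.3 with estradiol, 90.5 and 72.9 after withdrawal, and 132.1 and 70.1 with doxycycline. Of the 6 tested, 0 were called between withdrawal and doxycycline (0.00% over the array), with 4 higher and 2 lower values and a median of 0.02.

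**Figure D4:**
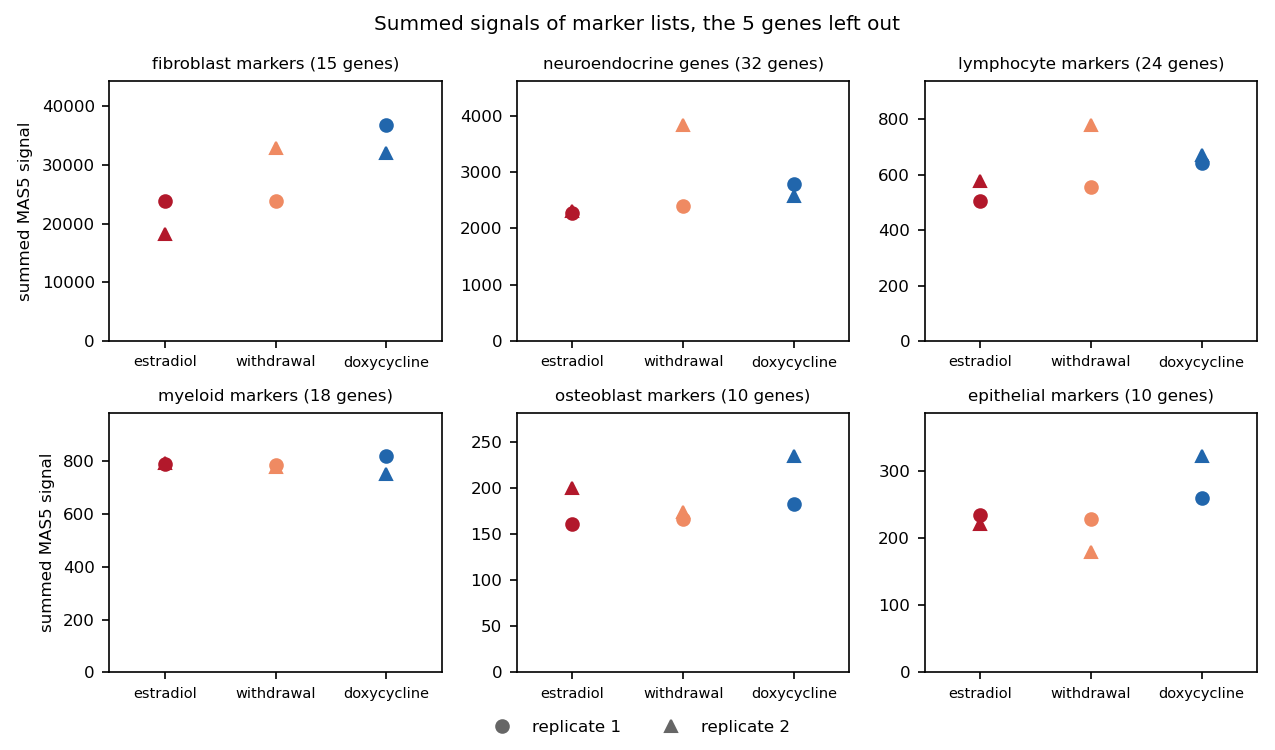
Summed MAS5 signal (linear scale from 0) of 6 marker lists on each array, with Cck, Ptprv, Rag1, Chga and Lst1 left out and the brightest probe set of each gene used. Circles are replicate 1 and triangles replicate 2. Fibroblast sums were at least 18246.5 on every array, myeloid sums overlapped between groups, and withdrawal replicate 2 was highest for the neuroendocrine and lymphocyte lists. On that array Cpe alone gave 2725.9 of the neuroendocrine sum of 3837.0, and Ebf1 alone 334.8 of the lymphocyte sum of 780.4.

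Neighbours of Lst1 in the MHC class III region varied in direction. Of 18 measured, 11 were tested, and 0 were called between withdrawal and doxycycline (0.00% over the array). The 11 had 4 higher and 7 lower values and a median of -0.21 against 0.01 over all tested. Lta, the lymphotoxin gene close to Lst1, had 18.6 and 31.2 with estradiol, 60.8 and 40.6 after withdrawal, and 75.6 and 96.6 with doxycycline. Those groups did not overlap, and withdrawal against doxycycline gave -0.52 (SE 0.27). Abhd16a, a lipase gene, gave -0.52 (SE 0.32). Lsm2, an RNA-processing gene, gave 0.97 (SE 0.35) and the tRNA synthetase gene Vars 0.50 (SE 0.41), the direction opposite to Lst1. Aif1, a neighbour that macrophages express, was dim, with a highest signal of 19.5. Ltb, another neighbour, was too dim to be tested, and its direction was that of Lst1. It had 6.9 and 7.6 with estradiol, 6.0 and 10.1 after withdrawal, and 26.9 and 33.4 with doxycycline. These signals may lie in the background.

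Of 17 other receptor-type tyrosine phosphatases measured, 8 were tested, and their median log2 difference between withdrawal and doxycycline was -0.07 against 0.01 over all tested. As over the whole array (0.00% called), 0 were called, with 2 higher and 6 lower values. Ptpre gave the highest value, 0.28 (SE 0.26), and Ptpra the lowest, -0.49 (SE 0.28). Among osteoblast markers other than Ptprv, 7 of 10 were below 32 on every array and 2 were tested. Ibsp, the bone sialoprotein gene, gave 0.36 (SE 0.31) and Bmp4 gave -0.45 (SE 0.27). The sums were 161.4 to 200.6 with estradiol, 167.0 to 174.2 after withdrawal and 183.0 to 234.9 with doxycycline. Epithelial markers summed to 220.6 to 234.6 with estradiol, 180.1 to 229.1 after withdrawal and 260.1 to 322.2 with doxycycline, and 6 of 10 were below 32 on every array. Over the 9 lists, 1 of 60 tested genes had an unadjusted p under 0.05 with limma between withdrawal and doxycycline, against 4.37% of all tested probe sets. Between estradiol and doxycycline it was 11 of 60, against 14.0% of all tested, with 5 of the 13 fibroblast markers and 4 of the 11 neighbours of Lst1 among them, and none passed. Of the 13 fibroblast markers, 12 had lower values with estradiol, with a median log2 difference of -0.56 against 0.00 over all tested. The proteoglycan gene Dcn stood at -2.21 (SE 0.62) there and Pdgfra at -2.18 (SE 0.55). For all lists, whether cells of another type contributed to the signals of the 5 genes was not tested.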

How the data were processed

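The labels describe 6 RNA samples on 1-colour Affymetrix arrays. The authors' deposited values are MAS5 signals, intensities on a linear scale, per the submitters' processing notes. Software version and settings: not given in the sources used here. Their trimmed means (2% off each end) were nearly equal, so scaling factors computed here were between 0.999968 and 1.000063. Gene names came from the platform annotation: of 12422 non-control probe sets, 10833 had 1 symbol, 396 several and 1193 none, and 0 symbols needed an update through Entrez identifiers. The number of arrays limits precision.

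Signals were turned into log2(signal + 32). Control probe sets were dropped, as were the lowest 40% by mean (signals under about 29.0). Limma 3.58.1 in R 4.3.3 was run on the remaining 7453, with 1 mean per group over 6 arrays, empirical Bayes with an intensity trend (3 residual and 5.23 prior degrees of freedom), two-sided p-values and Benjamini-Hochberg adjustment over all tested probe sets at 0.05. It was also run on simulated data with independent noise on each array. Deviations of the estradiol and withdrawal arrays were correlated, as given below, so that run does not cover them. Alternatives were other pseudocounts, quantile normalization, other filters, no trend, a replicate block and leaving out each array.

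The genes and the lists were chosen with earlier results of these data known. Named genes are the 5 genes, the 3 probe sets closest in pattern to each, and from each list up to 4 with the smallest unadjusted p or the highest signal. Defining markers that were dim, and Ltb, Pabpc4 and Nid2, were named after their values were seen. List counts use the brightest probe set per gene. In the labels each replicate number has its own extraction method, which pairs the arrays by label. Deviations from group means correlated at -0.00727 between withdrawal and doxycycline, 0.449 between estradiol and withdrawal and -0.0284 between estradiol and doxycycline. Promoters were matched by symbol, and 3 of the 5 genes had an entry.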

Additional observations from a re-analysis of the deposited data

How the results depend on the processing

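The 6 tested probe sets kept their direction between withdrawal and doxycycline and between estradiol and doxycycline with other pseudocounts, quantile normalization, no filter, no trend, the replicate block and each array left out. With the lowest 60% left out, none of the 6 remained, so that filter gave no value for them. For Cck, withdrawal against doxycycline ranged from 1.55 with a pseudocount of 64 to 2.65 with 16. Between estradiol and withdrawal the direction turned for Cck, Rag1, Chga and Lst1 when 1 array was left out. For Ptprv it did not turn, with 0.26 to 0.76 for 92662_g_at and 0.28 to 0.65 for 92663_at. Leave-one-array-out values ran from -0.47 to 0.07 for Cck, where leaving out estradiol replicate 1 gave 0.03, from -0.42 to 0.04 for Rag1, from -0.24 to 0.11 for Chga and from -0.64 to 0.29 for Lst1.

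The number of probe sets called by limma over the array was 0 in each comparison and stayed 0 with other pseudocounts, quantile normalization, other filters and no trend. With the replicate block it was also 0 in each comparison, with 435, 64 and 1219 at an unadjusted p under 0.05, and the block changed no call. Leaving out 1 array gave 0 to 26 calls for withdrawal against doxycycline (26 without doxycycline replicate 1, all lower), 0 to 17 for estradiol against withdrawal (17 without withdrawal replicate 1) and 0 to 133 for estradiol against doxycycline (131 without withdrawal replicate 1, 133 without withdrawal replicate 2, 28 without doxycycline replicate 1). Leaving out a withdrawal array takes the spread between the withdrawal replicates out of the shared estimate. In those 2 fits the log2 differences of estradiol against doxycycline stayed as in the full fit. They were 1.92 for Cck, 1.8 for 92662_g_at of Ptprv and -1.6 for Lst1. The doxycycline arrays had also served to choose the genes, so nothing is read from the adjusted p of these genes in those fits. The single array left in a group was assumed to vary like the other groups. Without detection calls, signals near the bottom of the scale cannot be told from background.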
